A study of Mus musculus with 2 samples.

Results

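Heat-shock proteins and chaperones were followed through 10 genes in macrophages sorted from the mouse small intestine: Hspa1a, Hspa1b, Dnajb1, Hsph1, Hsp90aa1, Hspa8, Hsp90ab1, Hspa5, Hspd1 and Hspe1. The genes were listed by name, and all 10 were found among the 27998 genes of both deposited matrices. The first 5 are known as stress-inducible and are called the inducible genes here, and the other 5 as constitutive. Droplet libraries of the 10x Genomics single-cell 3′ v2 chemistry were made from 2 genotypes, with 1 library each, in which unique molecular identifiers (UMIs) mark the captured 3′ ends of transcripts. The wild-type library came from male C57BL/6J mice supplied by Janvier, and the Ccr2-/- library from JAX strain 004999 bred in-house. Neither group is described as having received a treatment, and no age is stated for either. For each library, 3 to 4 intestines were pooled after removal of mucus and epithelium and digestion with Liberase TL. Live CD45+ cells were sorted that lacked CD3, TCRb, B220, SiglecF, Ly6C and Ly6G and carried CD11b, MHCII and CD64. Ccr2 guides monocytes out of the bone marrow and into tissue, and this strain lacks it in all cells.

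With 1 pooled library per genotype there was no replicate, no test between genotypes was possible, and genotype, mouse source and library cannot be told apart. The wild-type cells had been run on 2 lanes, which the barcode suffix separates. The ratio between the lanes is given throughout as a yardstick, and the lanes are not replicates. Some transcripts differed widely between them, such as haemoglobin, given below, and Reg3g, at 73.8 CPM (UMIs per 1000000) in lane 1 and 7.70 in lane 2. The lane ratio may therefore hold more than technical differences. A cell was kept if it had 200 or more detected genes and no more than 10% of its UMIs from mitochondrial genes. Kept were 3016 of 3054 wild-type cells, of which 2109 came from lane 1 and 907 from lane 2, and 2612 of 2774 knockout cells. Depth differed between the genotypes, with a median of 6129 UMIs per wild-type cell and 2439 per knockout cell, while the lanes were alike at 6185 and 6034. The lanes shared 5 barcode sequences, and the genotypes 6. All 8 macrophage markers were detected in both libraries, and their summed level was 14277 UMIs per 1000000 (CPM) in wild type against 10716 CPM in the knockout. Summed T cell and innate lymphoid markers stood at 11.1 and 20.6 CPM, and epithelial markers at 195 and 104. Plasma cell markers stood at 1667 and 1806 CPM, most of it from Jchain at 1600 and 1756. Haemoglobin transcripts stood at 1078 CPM in lane 1, 3.44 in lane 2 and 7429 in the knockout, and fibroblast markers at 27.9 in wild type and 245 in the knockout. Ccr2 itself was at 331 CPM in wild type and 6.88 CPM in the knockout.

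Chaperones bind unfolded or partly folded proteins and help them reach or regain their shape. Cells make Hsp70 and Hsp90 forms at all times and add stress-inducible forms when heat-shock factor 1 (Hsf1), released from chaperones by unfolded protein, binds heat-shock elements in the promoters of their genes. The endoplasmic reticulum has a separate branch, the unfolded protein response, with Hspa5 as its main Hsp70. In macrophages freshly isolated from tissue, inducible heat-shock transcripts and immediate early genes such as Fos are both known to respond to enzymatic digestion and sorting.

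A heat-shock element is built from GAA units in alternating orientation, and GAANNTTC and TTCNNGAA were searched on both strands in the 250 bases before each RefSeq start site of GRCm38.p6. Windows were found for 7 of the 10 genes, 10 windows in all. Hspa8, Hsp90aa1 and Hsp90ab1 had none. Among 32851 such windows of all genes, 6.69% held GAANNTTC, 7.17% held TTCNNGAA and 12.8% held either. Hspa1a and Hspa1b are neighbouring genes on chromosome 17, and their windows are shown in full because they are nearly the same while the levels of the genes were not. The windows lie at chr17:34972157-34972406 and chr17:34959239-34959488, both on the minus strand, and the capitals mark the match to GAANNTTC.
Hspa1a: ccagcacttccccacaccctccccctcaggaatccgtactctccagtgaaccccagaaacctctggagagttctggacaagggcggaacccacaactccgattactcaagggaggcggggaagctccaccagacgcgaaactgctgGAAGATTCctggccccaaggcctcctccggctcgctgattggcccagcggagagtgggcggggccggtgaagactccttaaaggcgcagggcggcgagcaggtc
Hspa1b: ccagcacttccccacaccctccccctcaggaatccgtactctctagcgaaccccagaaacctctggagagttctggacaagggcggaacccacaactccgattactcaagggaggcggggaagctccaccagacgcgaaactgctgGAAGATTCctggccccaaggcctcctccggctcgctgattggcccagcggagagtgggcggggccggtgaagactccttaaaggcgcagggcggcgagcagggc

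These windows differed at 3 of 250 bases, an identity of 98.8%. The match began at position -104 from each start site. The transcripts of the pair are less alike, with an aligned identity of 84.3%, and none of the 451 words of 50 bases in the last 500 bases of the Hspa1a transcript occurred in the Hspa1b transcript. The counting of transcript ends can therefore tell the genes apart there. A read from the 58.8% of words shared along the whole Hspa1a transcript fits both genes. The end of the Hspa1b transcript was not compared in this way.

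Short stretches of 30 bases are shown from 3 further windows, because they hold the motif matches found for the mitochondrial pair, Hsph1 and Hspa5. Capitals mark heat-shock element pairs in the first and second stretch. In the third they mark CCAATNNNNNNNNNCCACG, the endoplasmic reticulum stress element.
Hspe1 and Hspd1: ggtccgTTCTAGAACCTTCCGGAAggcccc
Hsph1: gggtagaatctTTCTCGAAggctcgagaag
Hspa5: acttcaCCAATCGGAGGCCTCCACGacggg

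The first stretch, at chr1:55088053-55088082 on the plus strand, lies upstream of Hspe1 and inside the annotated span of Hspd1, which runs the other way. It begins its capitals at position -89 from the Hspe1 start, and holds 3 overlapping pairs in 18 bases. The longer form GAANNTTCNNGAA occurred in it and in 0.466% of all windows. For Hspd1 these matches lay in the window of the inner RefSeq start only. The window of the outer start, where the annotated gene begins, held none. The Hsph1 stretch, at chr5:149636351-149636380 on the minus strand, has its match at position -33 from the nearer RefSeq start and -54 from the other. The Hspa5 stretch, at chr2:34772019-34772048 on the plus strand, has its match at position -65, and this motif occurred in 0.113% of all windows. The Hsph1 and Hspa5 matches lie upstream of these RefSeq starts but inside the GENCODE span of their own gene. Neither Dnajb1 window held GAANNTTC or TTCNNGAA. A match is a string of letters in a window and not a measured binding site.

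The inducible Hsp70 gene Hspa1a was lower in the knockout by more than any of the other 9 genes. Hspa1a encodes the cytosolic Hsp70 that is added under stress. It stood at 626 CPM in wild-type lane 1, 685 in lane 2 and 197 in the knockout. The ratio of the knockout to wild type was -1.70 on the log2 scale (exact 95% interval -1.79 to -1.63, counting error only), against 0.13 between the lanes, and ratios carry a pseudocount of 1 CPM. Both lanes lay far above the knockout, and the gene had the 15th lowest ratio of the 7401 genes with a mean of at least 10 CPM. Its near-copy Hspa1b stood at 230, 183 and 144 CPM, a ratio of -0.59 (-0.69 to -0.49), with -0.33 between the lanes. The knockout was again below both lanes, with a log2 ratio of -0.68 to lane 1 and -0.35 to lane 2. The gap to lane 2 was little more than the lanes differed from each other.

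Hsp90aa1, the inducible cytosolic Hsp90, stood at 631 CPM in lane 1, 521 in lane 2 and 272 in the knockout, a log2 ratio of -1.14 (-1.21 to -1.07). Hsph1, an Hsp110 that exchanges nucleotide on Hsp70, stood at 39.1, 29.97 and 18.7 CPM, a log2 ratio of -0.92 (-1.23 to -0.69). Its lanes differed by -0.37 on the same scale. Dnajb1, an Hsp40 that hands substrates to Hsp70, stood at 42.6, 53.7 and 46.5 CPM. The knockout lay between the lanes, and the log2 ratio of 0.02 (-0.16 to 0.20) was smaller than the 0.33 between the lanes. The sign of this ratio held in 7 of 12 alternative settings. By mitochondrial share of the cells the ratio was 0.81 under 2.5%, 0.04 at 2.5% to 5% and -1.15 at 5% to 10%, and in cells with under 2000 UMIs it was -0.65, so the direction for Dnajb1 depended on the cells compared.

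Summed, the 5 inducible genes stood at 1569 CPM in lane 1, 1474 in lane 2 and 678 in the knockout. The ratio of knockout to wild type was -1.18 (-1.23 to -1.14) on the log2 scale, or 2.27-fold lower. Without Hsp90aa1 the ratio of the sum was -1.21. The lanes differed by -0.09.

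**Figure D1:**
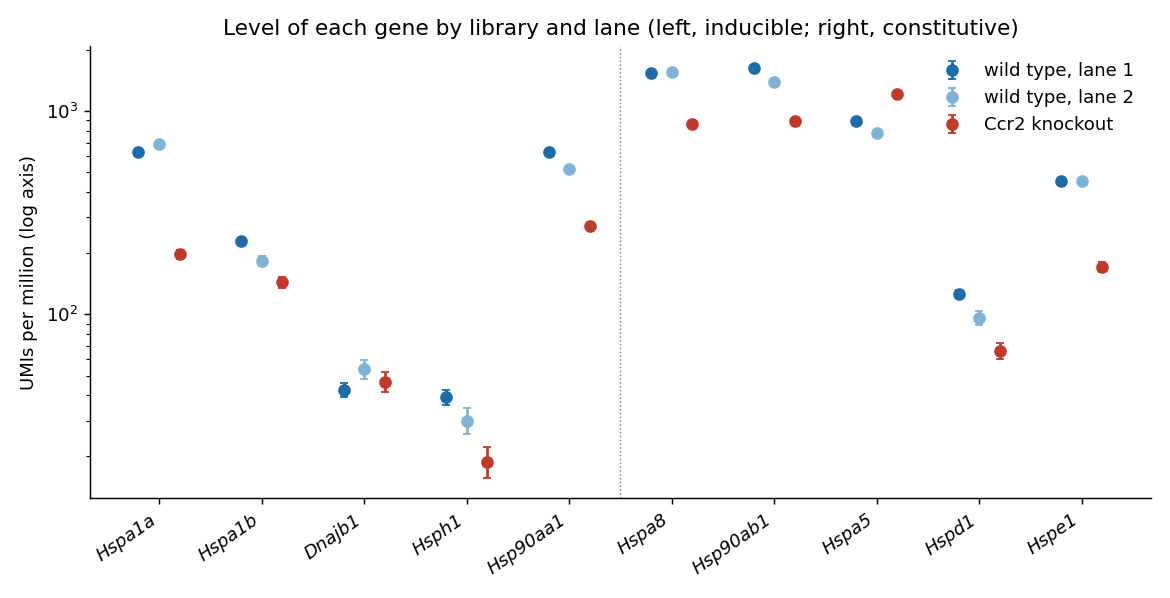
Level of each of the 10 genes in CPM (log axis) in wild-type lane 1, wild-type lane 2 and the knockout, with exact 95% Poisson intervals that cover counting error. For Hspa1a the lanes stand at 626 and 685 and the knockout at 197, while Hspa5 is the gene with the knockout clearly above both lanes, at 1217 against 891 and 778.

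The constitutive genes were lower as well, with one exception. Hspa8, the Hsc70 that folds and uncoats proteins in unstressed cells, stood at 1536 CPM in lane 1, 1555 in lane 2 and 862 in the knockout, a log2 ratio of -0.84 (-0.88 to -0.80). Hsp90ab1, the constitutive cytosolic Hsp90, stood at 1637, 1391 and 892 CPM, a log2 ratio of -0.81 (-0.85 to -0.77). The knockout was below both lanes for either gene.

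Hspd1 and Hspe1 encode Hsp60 and Hsp10, the barrel and the lid of the mitochondrial folding chamber. Hspe1 stood at 453 CPM in each lane and 171 in the knockout, a log2 ratio of -1.40 (-1.49 to -1.32), with 0.00 between the lanes. Hspd1 stood at 126 in lane 1, 96.3 in lane 2 and 65.9 in the knockout, a log2 ratio of -0.82 (-0.98 to -0.69), with -0.39 between the lanes. The pair was therefore not lowered in equal measure. Hspd1 made up 20.6% of the pair's UMIs in wild type (exact 95% Clopper-Pearson interval 19.8% to 21.3%), 21.8% in lane 1, 17.5% in lane 2 and 27.8% in the knockout (25.7% to 30.03%).

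Hspa5, the Hsp70 of the endoplasmic reticulum also called BiP, stood at 891 CPM in lane 1, 778 in lane 2 and 1217 in the knockout. Its log2 ratio of 0.50 (0.47 to 0.54) was the highest of the 10, and the lane ratio of -0.20 went the other way. The summed constitutive genes stood at 4643, 4273 and 3208 CPM, a log2 ratio of -0.50 (-0.52 to -0.48). The inducible genes accordingly made up 25.4% of the UMIs of the 10 genes in wild type (25.1% to 25.6%), 25.3% in lane 1, 25.6% in lane 2 and 17.4% in the knockout (17.0% to 17.9%).

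**Figure D2:**
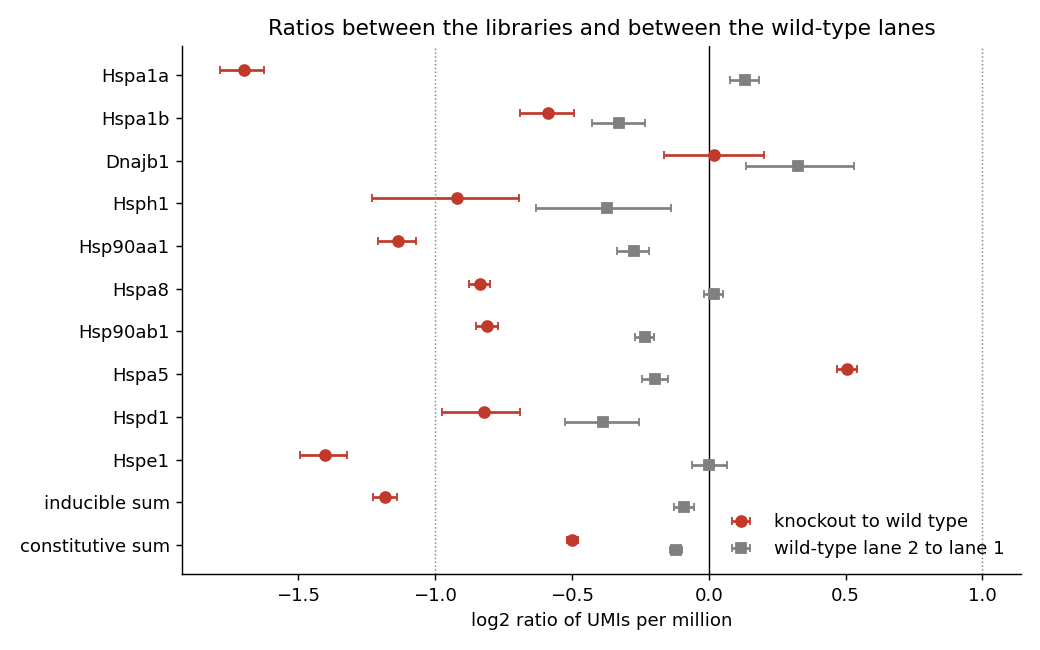
log2 ratio of CPM for each gene and for both sums, with knockout to wild type as circles and wild-type lane 2 to lane 1 as squares, and exact 95% intervals for counting error. Dotted lines mark a 2-fold difference, which Hspa1a, Hsp90aa1 and Hspe1 pass on the lower side in the knockout, and the lane ratios stay between -0.39 and 0.33.

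Read against the whole transcriptome, 3 of the 10 genes (Hspa1a, Hspe1 and Hsp90aa1) were at least 2-fold lower in the knockout, where 3.12% of the 7401 genes were. Among the 2666 genes with a mean of at least 50 CPM, which include these 3, the share was 5.44%. None of the 10 was at least 2-fold higher, where 9.04% of the 7401 genes were. Of the 10, 8 were lower by any amount, where 37.7% of the genes were, and 2 higher, where 62.3% were. The median over all genes was 0.18 on the log2 scale. With lane 2 alone as wild type the count of 2-fold lower members was 2, since Hsp90aa1 then stood at -0.94. With lane 1 alone it was 4, since Hsph1 then stood at -1.02. The share of all genes was not computed for each lane alone, and 2.54% of the 7401 genes were 2-fold below both lanes. Between the lanes none of the 10 reached 2-fold in either direction, where 0.838% of the genes were that much lower and 0.0405% higher in lane 2. Scaling by the median of gene ratios in place of the total moved all genes down by 0.19. It raised the count of 2-fold lower members to 7, where 6.36% of all genes were, and brought the share of higher genes among those past 2-fold from 74.3% to 48.3%.

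The RNA of the libraries also differed in other ways. Ribosomal protein genes took 19.6% of wild-type UMIs and 12.7% of knockout UMIs, Malat1, a nuclear RNA, 3.57% and 8.30%, and mitochondrial genes 3.08% and 4.13%. With these and haemoglobin left out of the totals, a choice made after seeing the data, the inducible ratio was -1.19 and the constitutive ratio -0.51. The part of RNA quality in the ratios was not tested.

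Hspa1a and Hspa1b parted from each other with the depth of the cell in wild type. Hspa1b took 25.2% of the pair's UMIs in wild type (24.5% to 25.8%), 26.9% in lane 1, 21.1% in lane 2 and 42.1% in the knockout (40.2% to 44.1%). In wild-type cells with under 2000 UMIs Hspa1b stood at 674 CPM, against 430 at 2000 to 4000, 260 at 4000 to 8000 and 143 at 8000 or more. Over the same bands Hspa1a stood at 762, 707, 729 and 580 CPM. The level of Hspa1b was thus lower in each deeper band while that of Hspa1a differed far less.

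The same order of Hspa1b levels was present in each lane. Lane 1 gave 725, 456, 265 and 159 CPM from the shallowest to the deepest band, and lane 2 gave 637, 359, 245 and 104. In the knockout Hspa1b stood at 157, 146 and 140 CPM in the first 3 bands, and too few cells had 8000 UMIs or more. The share of Hspa1b in the pair ran from 46.9% (41.8% to 52.1%) in the shallowest wild-type band to 19.7% (18.9% to 20.6%) in the deepest, while in the knockout it was 42.6%, 42.3% and 41.7%. The ratio of knockout to wild type for Hspa1b therefore depended on the cells compared. On the log2 scale it was -2.09 under 2000 UMIs, -1.55 at 2000 to 4000 and -0.88 at 4000 to 8000, where Hspa1a gave -1.84, -1.82 and -1.89.

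**Figure D3:**
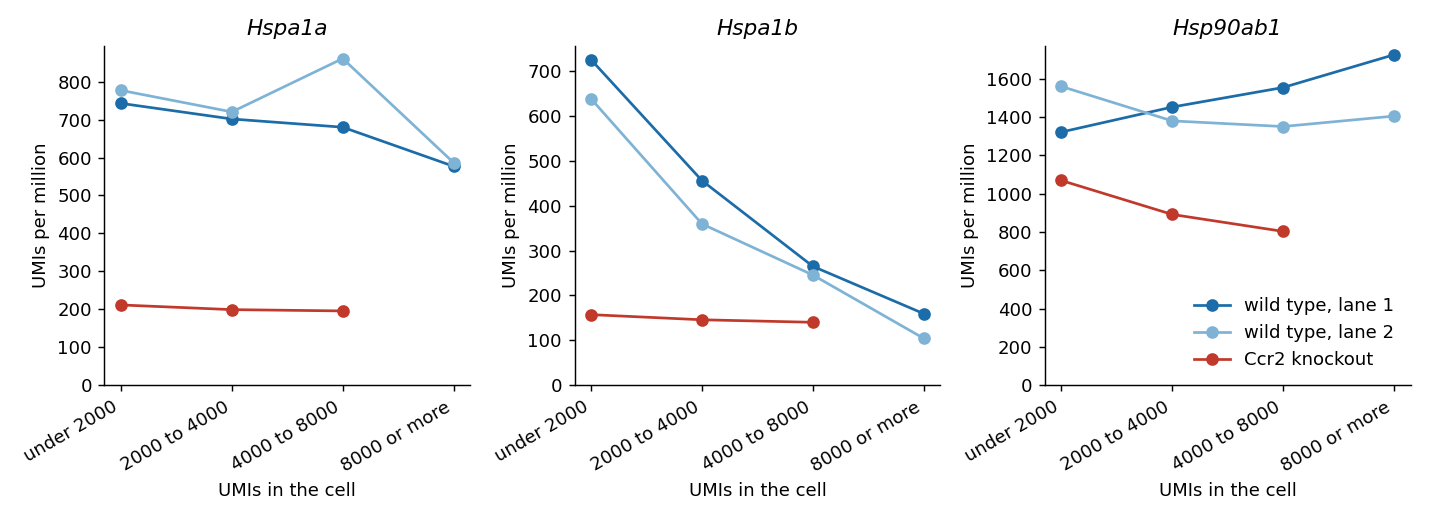
CPM of Hspa1a, Hspa1b and, as a constitutive gene, Hsp90ab1 in cells binned by their total UMIs, for wild-type lane 1, wild-type lane 2 and the knockout. Wild-type Hspa1b goes from 725 and 637 in the shallowest band to 159 and 104 in the deepest, whereas knockout Hspa1b stays between 140 and 157.

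The mitochondrial share of a cell, a common sign of damage, gave a matching split. In wild-type cells with under 2.5% mitochondrial UMIs Hspa1b stood at 126 CPM, at 2.5% to 5% at 230 and at 5% to 10% at 504. Hspa1a stood at 707, 573 and 670 in these cells. In the knockout Hspa1b went the other way, with 187, 148 and 111 CPM, as did Hspa1a, with 242, 204 and 155, and the inducible sum, with 871, 686 and 559. For Hspa1b the knockout to wild-type ratio was 0.56, -0.63 and -2.17 on the log2 scale in the 3 ranges, so that its direction turned between them. With cells limited to at least 500 genes and at most 5% mitochondrial UMIs it was -0.19. For the inducible sum the ratio was negative in each range, at -0.79, -1.11 and -1.77, and in each shared depth band, at -1.58, -1.47 and -1.37. Depth and mitochondrial share were not separated from each other here, and their part in the Hspa1b level was not tested.

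The inducible sum was spread more unevenly over cells than the constitutive sum. To compare spread at 1 depth, each cell was thinned at random to 1000 UMIs, which left out 1 wild-type and 196 knockout cells. The Fano factor, the variance of the count over cells divided by its mean and equal to 1 for pure counting noise, was 2.45 for the inducible sum in wild type and 2.46 in the knockout. For the constitutive sum it was 1.42 and 1.44. A Fano factor grows with the mean for the same relative spread, and the mean thinned count of the inducible sum was 1.67 in wild type and 0.707 in the knockout, so these factors do not show equal relative spread.

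Among single genes, Hspa1a had a Fano factor of 1.88 in wild type and 1.77 in the knockout, Hspa1b 1.59 and 2.001, and Hsp90aa1 1.57 and 1.48. Dnajb1 had 1.11 and 1.16 and Hsph1 1.06 and 1.18, both at low counts where the factor stays near 1. Among the constitutive genes Hspa5 had 1.34 and 1.47, Hspa8 1.28 and 1.29, Hsp90ab1 1.20 and 1.33, Hspd1 1.12 and 1.05, and Hspe1 1.12 and 1.10. Hspe1, at a level between those of Hspa1a and Hspa1b in wild type, was close to counting noise while both Hsp70 genes were not.

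At 1000 UMIs, a UMI of any inducible gene was seen in 68.2% of the cells in wild type (66.5% to 69.8%) and 39.1% in the knockout (37.1% to 41.1%), against 95.4% and 60.6% without thinning. For the constitutive genes the thinned shares were 97.9% and 93.3%. Hspa1a alone was seen in 39.7% and 14.6% of thinned cells, and Hspa5 in 53.4% and 64.8%. The 10% of cells with most inducible UMIs held 37.0% of them in wild type against 51.4% in the knockout. For the constitutive genes they held 21.5% and 23.6%. Such a share is larger at a lower mean count, so these values do not show a difference in concentration between the libraries. For Hspe1, with Fano factors of 1.12 and 1.10, the share was 44.9% in wild type and 73.7% in the knockout. No cell type in the sort is known to lack these genes, so free RNA could not be read from one. Cells with lymphoid markers numbered 15 in wild type, with a median of 3564 UMIs, and 36 in the knockout, with 2235. Thinning kept 15 and 35 of them, and Hspa1a was seen in 20% and 5.71% of those, shares that rest on few cells. In cells with macrophage markers, whose medians were 6234 and 2697, it was seen in 40.2% and 14.5%.

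Members were also compared within cells. Among the 2868 wild-type and 1595 knockout cells with at least 2000 UMIs, Hspa1a and Hspa1b had a Pearson correlation of log-scaled levels of 0.46 and 0.45, the highest of all pairs in either library. The next in wild type was Hspa1a with Hsp90aa1, at 0.31. The median over the 10 pairs of inducible genes was 0.17 in wild type and 0.13 in the knockout, over the 10 constitutive pairs 0.12 and 0.05, and over the 25 mixed pairs 0.09 and 0.04. Hspd1 and Hspe1, which share a promoter, had 0.15 and 0.01. Cells of a library share depth and total, and a correlation this weak in sparse counts is no finding.

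Fos, Egr1 and Dusp1 are immediate early genes, switched on within minutes of a stimulus. Summed, they stood at 2531 CPM in lane 1, 2408 in lane 2 and 10770 in the knockout, a log2 ratio of 2.11 (2.09 to 2.13). Between the libraries the inducible heat-shock genes and the immediate early genes thus stood in opposite order. Within each library they went together weakly. Over the 3016 wild-type cells the share of inducible UMIs had a Spearman rho of 0.12 and a Pearson r of 0.24 with the immediate early share, with rho at 0.12 in lane 1 and 0.14 in lane 2. Over the 2612 knockout cells rho was 0.16 and r 0.12. After thinning, rho was 0.08 in wild type and 0.15 in the knockout. The constitutive share gave larger values, with rho at 0.27 and 0.26, and 0.14 and 0.20 after thinning. These values are over cells that share a library and a cell total, they depend on depth, and the weakest are no finding.

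The same relation is seen as levels when the cells of each library are ordered by their immediate early share and cut into 4 bins of near-equal size. From the lowest to the highest bin the inducible sum stood at 1274, 1511, 1523 and 1907 CPM in wild type and at 486, 666, 776 and 879 in the knockout. The highest knockout bin, with 21178 CPM of the immediate early genes, thus had less inducible heat-shock RNA than the lowest wild-type bin, with 654. The constitutive sum stood at 4186 in the lowest and 5134 in the highest wild-type bin, and at 2740 and 3843 in the knockout.

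Single genes did not all follow. Hspa1a stood at 509 CPM in the lowest and 792 in the highest wild-type bin, and at 115 and 290 in the knockout. Hspa5 stood at 737 and 1079 in wild type and at 888 and 1632 in the knockout. Hspe1 went from 450 to 501 in wild type and the other way in the knockout, from 212 to 129. The highest bins held shallower cells, with a median of 5147 UMIs against 5962 in the lowest wild-type bin and 1680 against 2841 in the knockout, and the part of depth was not tested.

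**Figure D4:**
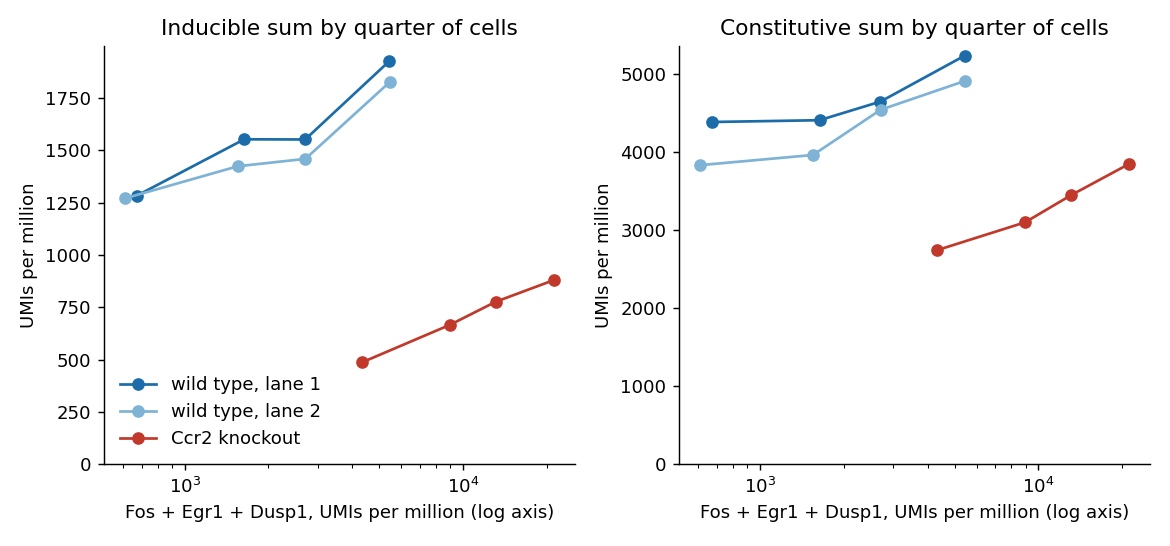
Inducible and constitutive sums (CPM) in 4 bins of cells ordered by their share of Fos, Egr1 and Dusp1, plotted against the level of these 3 genes in the bin (log axis), for each wild-type lane and the knockout. The inducible sum is higher in the highest than in the lowest bin of every series, and the highest knockout value, 879, lies below the lowest wild-type one.

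The genes most like the inducible sum over cells were ranked by the Pearson correlation of log-scaled levels among 5364 genes detected in at least 5% of the cells of both libraries. Jun, an immediate early transcription factor, was first in both, at 0.27 in wild type and 0.17 in the knockout. Dnaja1, a cytosolic Hsp40, was the second in wild type at 0.21 and had 0.13 in the knockout. Jund had 0.16 and 0.12. Also among the first 10 in wild type were Psap, Malat1, Lgmn, Mmp13, Tlr12 and Dnase1l3, and in the knockout Egr1, Fos, Dusp1, Rsrp1, Junb and Pea15a. Jun, Dnaja1 and Jund were among the first 10 in both. The inducible share was lower in wild-type cells with a higher ribosomal share (rho -0.23, and -0.08 in the knockout).

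The lower inducible level in the knockout was present in each group of macrophages that could be picked by UMIs of other genes. These groups overlap and are ranges of cells, not cell types. In cells with at least 4 of 8 macrophage markers the inducible sum stood at 1549 CPM in wild type (2937 cells) and 678 in the knockout (2187 cells). In cells with a UMI of Timd4, a receptor of long-lived resident macrophages, it stood at 1831 (445 cells) and 648 (815 cells), the widest gap of these groups at -1.50 on the log2 scale. Cells with Cd4 but no Timd4 gave 1675 and 677, and cells with Cd163, a scavenger receptor, 1403 and 679.

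Cells with Plac8, a gene of recent monocyte descendants, had 1435 CPM in wild type (859 cells) and 673 in the knockout (224 cells). Cells with a UMI of the proliferation genes Top2a or Mki67 had 1490 and 828. Cells with at least 2 of the interferon-induced genes Ifit1, Ifit2, Ifit3 and Rsad2 had 1614 in wild type (315 cells) and 980 in the knockout (186 cells), the narrowest gap at -0.72. Cells with Mt2, a metallothionein, had 1618 and 676, from 49 and 210 cells. Within wild type the order of the groups was only partly shared by the lanes. Timd4 cells stood highest in both, at 1784 CPM in lane 1 and 1956 in lane 2, while the interferon group stood at 1740 in lane 1 and 1262 in lane 2. In lane 1 the interval of the Timd4 cells, 1729 to 1839, overlapped those of the interferon group, 1681 to 1799, and the Mt2 group, 1610 to 1928. The groups also differed in depth, with wild-type medians of 6154 UMIs in Timd4 cells and 8210 in Plac8 cells. The part of depth in their order was not tested. Hspa1a was lower in the knockout in all 8 of these groups, with log2 ratios from -2.07 to -1.11, whereas Hspa1b gave 0.12 in the interferon group and between -0.91 and -0.10 in the other 7.

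**Figure D5:**
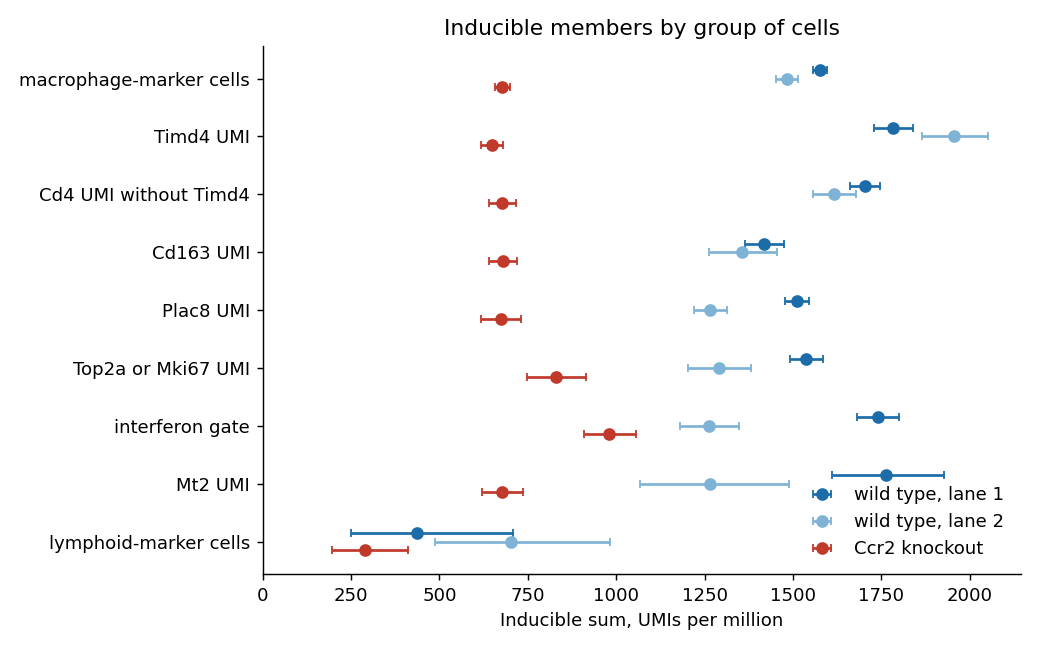
Summed level of the inducible genes (CPM) in groups of cells picked by UMIs of other genes, for each wild-type lane and the knockout, with exact 95% Poisson intervals for counting error. The knockout lies below both lanes in the 8 macrophage groups, while in the lymphoid-marker group, with few cells, its interval overlaps that of lane 1.

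Other chaperone and stress genes were taken from lists by role, 74 genes of which 64 had a mean of at least 10 CPM. Of the 64, 7 were at least 2-fold lower in the knockout, where 3.12% of all genes were, and 6 were that much higher, where 9.04% were, a share close to that of all genes. Their median log2 ratio was -0.36, where the median of all genes was 0.18. Among the cytosolic co-chaperones, 2 of 19 were 2-fold lower and none higher, against 3.12% and 9.04% of all genes, with a median of -0.49. These were Stip1, which bridges Hsp70 and Hsp90, at 46.7 CPM in wild type against 16.7 in the knockout, and Cacybp, at 66.3 and 29.5. At the other end stood Dnajb6, an Hsp40, at 116 and 153, and Hspa4l, an Hsp110, at 11.8 and 15.1. Hsbp1, a regulator of Hsf1, stood at 154 and 85.5 CPM, and Hspbp1, from the same list, at 17.3 and 16.0.

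The cytosolic chaperonin CCT, a folding ring for actin and tubulin, was lower in all 7 of its measured subunit genes, where 37.7% of all genes were lower, and 2 of 7 were past 2-fold, where 3.12% were. The median was -0.96. Cct5 stood at 129 CPM in wild type against 53.4 in the knockout, and Tcp1 at 84.6 and 37.2. The least different were Cct2, at 97.2 and 61.7, and Cct7, at 87.0 and 55.7. Of the 8 other mitochondrial chaperones and proteases none passed 2-fold, where 3.12% of all genes were that much lower and 9.04% higher. With 8 genes, a count of none cannot be told from these shares. Their median was -0.19. Trap1, the mitochondrial Hsp90, stood at 16.7 and 9.77 CPM and Grpel1, the exchange factor of mitochondrial Hsp70, at 42.2 and 25.5. Hspa9, that Hsp70 itself, stood at 58.6 and 73.5 and the protease gene Lonp1 at 12.7 and 16.5. The gap of Hspe1 was thus wider than that of any of these 8 genes.

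In the endoplasmic reticulum list 2 of 15 genes were 2-fold lower and 1 higher, against 3.12% and 9.04% of all genes, and the median was -0.42. Sdf2l1, a partner of Hspa5, stood at 327 CPM in wild type against 134 in the knockout, and Manf, a stress-induced secreted protein, at 308 and 135. Hyou1, an Hsp110 of the endoplasmic reticulum, stood at 23.1 and 49.7, and Dnajb9 at 49.8 and 83.3. The regulators of the unfolded protein response stood on the side of Hspa5: all 7 measured were higher, where 62.3% of all genes were, and 3 of them 2-fold, where 9.04% were. Their median was 0.87. Ddit3, which encodes CHOP, stood at 39.7 and 151 CPM, and Herpud1 at 221 and 558. Xbp1 stood at 185 and 212 and Ern1, its activating sensor, at 12.3 and 14.0. The third gene past 2-fold, named after its value was seen, was Eif2ak3, the sensor PERK, at 11.8 and 26.4.

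In the small heat-shock protein list, which also holds a collagen chaperone, 2 genes were above the minimum. Hspb11 stood at 28.1 CPM in wild type and 14.2 in the knockout. Serpinh1, the collagen chaperone, stood at 3.97 and 23.9, beside the fibroblast markers given above, and their part in it was not tested. Ubb, a ubiquitin gene, stood at 1520 and 751, and Sqstm1, an autophagy receptor, at 64.4 and 146. A wider immediate early list had all 15 measured genes at least 2-fold higher in the knockout, where 9.04% of all genes were, and its median was 1.60. Ier3 stood at 113 and 683 CPM, Klf2 at 237 and 992, Atf3 at 340 and 882 and Egr2 at 18.9 and 47.9.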

How the data were processed

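The deposited files hold UMI counts per gene and cell, whole numbers that were not normalised, for 2 libraries. Cell Ranger 3.0.1 and the build mm10 are named per the submitters' processing notes. The annotation, the calling of cells and any balancing of lane depth are not given in the sources used here. The genes and lists were chosen with earlier results of these data known. Counts of the kept cells were summed per library and lane and scaled to 1000000. log2 ratios used a pseudocount of 1, and calls a 2-fold difference at a mean of at least 10. No test was made, since each genotype had 1 library. Sums carry exact Poisson intervals, shares Clopper-Pearson intervals and ratios exact intervals conditional on the summed count, at the 95% level, and they cover counting error only, neither animals nor amplification. Named were the 10 genes, the 2 highest and 2 lowest ratios of each chaperone list, Fos, Egr1 and Dusp1, and the 10 best correlates per library. Some genes that this rule names are not reported here. Doublets were kept in the main values and removed in an alternative (Scrublet in scanpy 1.11.5, the highest scores up to 0.8% per 1000 cells), since its automatic threshold marked 12 of 5628 cells. Levels and thinning used Python 3.11.15, numpy 2.4.6 and scipy 1.17.1, and the ratio step was tested on simulated data. Promoter sequences came from RefSeq (GRCm38.p6) and transcripts from GENCODE M21. Shares of cells with a UMI depend on the depth of the cell and are given after thinning to 1000 UMIs.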

Additional observations from a re-analysis of the deposited data

How the results depend on the processing

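The inducible ratio of knockout to wild type was negative under all 12 alternatives, from -1.47 to -1.05, and the constitutive ratio likewise, from -0.69 to -0.40. The inducible and constitutive ratios were -1.37 and -0.69 with median-of-ratios size factors, -1.47 and -0.40 in cells with 2000 to 4000 UMIs, -1.24 and -0.43 after thinning, -1.26 and -0.41 as means over cells, and -1.12 and -0.41 with lane 2 alone as wild type. The constitutive ratio was -0.53 with lane 1 alone, and the inducible ratio -1.05 in cells with at least 500 genes and at most 5% mitochondrial UMIs. Between the lanes the inducible ratio was -0.014 with size factors, -0.0045 after thinning and -0.031 as a mean over cells. The constitutive lane ratio was -0.043 with size factors, -0.088 after thinning and -0.14 with reduced totals, an alternative chosen after seeing the data. Members at least 2-fold lower numbered 3 in the main values, 7 with size factors (6.36% of all genes there) and 5 at 2000 to 4000 UMIs (2.66%). They numbered 4 after thinning, 4 with lane 1 alone as wild type and 2 with lane 2 alone, where Hsp90aa1 stood at -0.94. The share of all genes was not computed for thinning or for each lane alone. Dnajb1 kept its sign in 7 of 12 alternatives, from -0.29 to 0.28. The wild-type rho with the immediate early share was 0.082 under the stricter filter, 0.17 at 2000 to 4000 UMIs, 0.081 after thinning and 0.27 for constitutive genes, and the knockout rho was 0.14 under the stricter filter and 0.26 for constitutive genes. The cause was not tested. No paired analysis was possible because each genotype has 1 library. Hsph1, Dnajb1 and Hspd1 have few counts and wide intervals, and the Hspa1b ratio went from -0.59 to -1.55 in cells with 2000 to 4000 UMIs.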

Other observations

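Few cells carried markers of other types and fewer than 4 macrophage markers, and they are given here as values only. The inducible sum in lymphoid-marker cells stood at 587 CPM in wild type (15 cells, exact 95% Poisson interval 436 to 774) and 289 in the knockout (36 cells, 195 to 412), below the macrophage-marker cells of the same library. In stromal or epithelial-marker cells it stood at 784 (7 cells, 536 to 1106) and 1179 (35 cells, 999 to 1382), and Hspa1a there at 269 and 426. Hspa1a in knockout cells of this kind was thus higher than the 196 CPM of knockout cells with macrophage markers. The intervals cover counting error only, and the cells per library are few.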
